A study of Arabidopsis thaliana with 6 samples.

Results

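The regions described here are stretches of Arabidopsis thaliana chromatin that were recovered with an anti-FLAG antibody from plants with tagged CND1, were not called in untagged plants, and lay far from the start of any gene in the authors' annotation. There were 308 of them among 17347 regions in all. Overlapping peaks of the 4 ChIP lists (1 bp or more) were first joined into regions. The members were then chosen by the presence of peaks in both CND1-FLAG lists, the absence of any Col-0 peak, a place on chromosomes 1 to 5, and the feature of the first peak in CND1-FLAG replicate 1, which had to be "Distal Intergenic". This term means beyond 3 kb from a gene start and outside gene bodies and the 3 kb downstream of them. The choice therefore rests on which lists held a peak, and the folds of the members are given as a description, without a test.

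The tagged plants were seedlings of the genotype pCND1-Flag/cnd1-3, a CND1-Flag transgene in the cnd1-3 background, and the controls were Col-0 seedlings without a tag. Each genotype had 2 ChIP libraries and 1 input, all fixed with 1% formaldehyde for 10 minutes, and a peak list of every ChIP library was used. Col-0 lacks the tag, the transgene and the cnd1-3 allele, and these differences cannot be told apart. The labels do not say which promoter drives the transgene, how many transgenic lines were used or whether replicate libraries stem from different plants. The p-values below therefore measure the spread between these libraries, which may be technical.

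In Arabidopsis, sequence far from genes is concentrated around the centromeres. These pericentromeres are gene-poor heterochromatin, rich in transposons and their remains, compact and mostly silent, with dense DNA methylation. Many of the repeats there occur in several copies, so short reads are harder to place than elsewhere. The title of the series concerns the part CND1 plays in the stability of the nuclear and the chloroplast genome.

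Of the 17220 regions on chromosomes 1 to 5, 4011 or 23.3% had a peak in both tagged lists and in no Col-0 list, and the 308 distal ones made up 7.68% of those 4011. Among the 8049 nuclear regions of both tagged lists, 49.8% had no Col-0 peak. That share was 45.8% for distal regions, 308 of 672, and 50.2% for the others. These shares belong to the contrast that chose the members and nothing is read from them. The remaining 364 distal regions, which also had a Col-0 peak, are named shared distal regions below. The number of members depends on how peaks were chosen. It was 59 when only peaks with −log10 q of at least 5 were used and 81 when only peaks with a fold of at least 2 were used. These limits applied to the Col-0 lists too, so regions with weaker Col-0 peaks could enter. The 59 and the 81 are therefore not all among the 308. Leaving out CND1-FLAG replicate 1 gave 618 and leaving out CND1-FLAG replicate 2 gave 986, where a single tagged list then suffices. In the second case 12.9% of tagged-specific regions were distal.

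The first comparison sets all distal intergenic peaks of each list, not the chosen regions, between the genotypes. CND1-FLAG replicates 1 and 2 had 1569 and 1069 of them among 12933 and 10414 nuclear peaks. Col-0 replicates 1 and 2 had 698 and 584 among 6152 and 5722, so the Col-0 lists were shorter as a whole. Both tagged lists held more distal peaks than both Col-0 lists, with means of 1319 ± 353.6 and 641 ± 80.6 (SD, n = 2 each) and a ratio of 2.06. By an exact permutation test over libraries (two-sided) p was 0.333, below which a design of this size cannot go. The ratio was 2.72 with −log10 q of at least 5, and 6.83 with a fold of at least 2, from 354 and 240 tagged peaks against 48 and 39 Col-0 peaks. At that fold, distal peaks made up 6.61% and 5.86% of the tagged peaks and 6.37% and 5.40% of the Col-0 peaks, so their share overlapped between the genotypes. With −log10 q of at least 5 they made up 4.96% and 3.62% of the tagged peaks and 6.04% and 5.09% of the Col-0 peaks. There both tagged shares were below both Col-0 shares.

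As a share of the nuclear peaks, distal peaks came to 12.1% and 10.3% for CND1-FLAG and to 11.3% and 10.2% for Col-0. The groups overlapped, with means of 11.2% ± 1.32 and 10.8% ± 0.806 (SD, n = 2 each), a difference of 0.422 percentage points and an exact two-sided permutation p = 0.667. The difference turned to −1.28 with −log10 q of at least 5, to −0.511 without CND1-FLAG replicate 1 and to −0.148 without Col-0 replicate 2. The pericentromeric share of distal peaks was 93.1% and 91.8% for CND1-FLAG, compared with 88.5% and 87.8% for Col-0. These groups did not overlap and differed by 4.22 percentage points (exact two-sided permutation p = 0.333, again the smallest possible with n = 2 per group). With a fold of at least 2 that difference was 0.768, and with −log10 q of at least 5 it was −0.803. Among the other nuclear peaks, the pericentromeric share was 13.3% and 12.1% for CND1-FLAG and 13.6% and 13.6% for Col-0. Those shares did not overlap either, and the tagged lists had the lower ones.

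**Figure D1:**
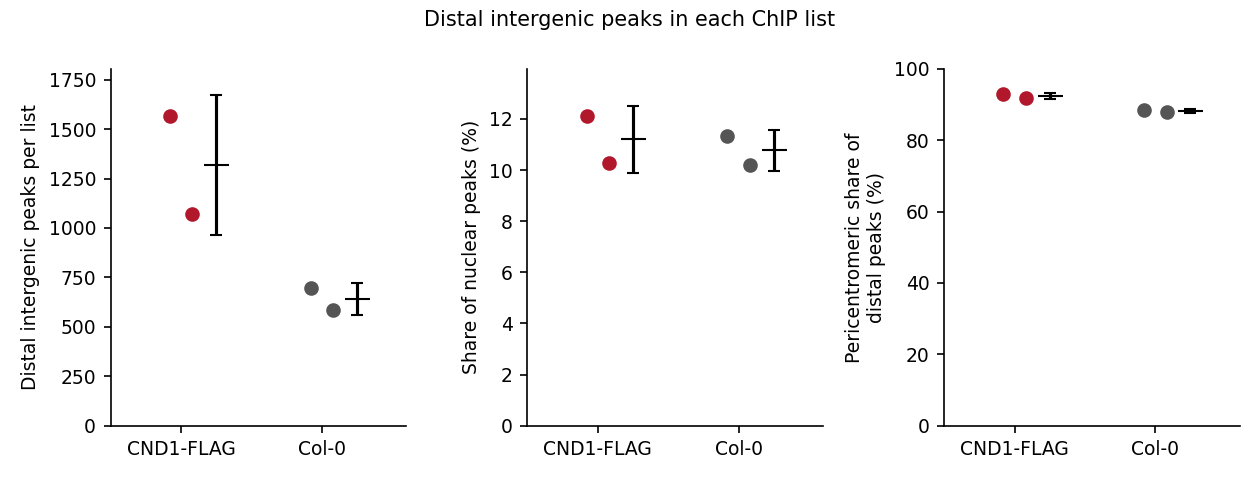
Distal intergenic peaks in each of the 4 ChIP lists: their number, their share of the nuclear peaks in percent and the pericentromeric share of them in percent, with 1 point per library and a bar for the mean ± SD of the 2 libraries. The tagged lists hold 1569 and 1069 distal peaks against 698 and 584 in Col-0, while the shares of all peaks overlap between the genotypes.

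Distal peaks were found again less completely in the other library of the same genotype than peaks nearer to genes. Of the distal peaks of CND1-FLAG replicate 1, 44.4% overlapped a peak of replicate 2, against 66.1% of its other nuclear peaks. For CND1-FLAG replicate 2 the shares were 66.2% and 80.4%. The same order held in the Col-0 lists, with 42.8% against 62.2% in replicate 1 and 50.7% against 66.2% in replicate 2. Distal peaks also had the lower median −log10 q in all 4 lists, for example 3.53 against 6.38 in CND1-FLAG replicate 1 and 2.96 against 3.79 in Col-0 replicate 1.

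The members themselves were modestly enriched. Fold enrichment, the authors' value for the pile-up of fragments at a summit over its local background, had a median of 1.80 in CND1-FLAG replicate 1 (1.17 to 3.10) and of 1.80 in CND1-FLAG replicate 2 (1.30 to 3.23). The quartiles were 1.68 and 1.97 in the first list and 1.68 and 1.98 in the second. For the 3703 other tagged-specific nuclear regions the medians were 1.96 and 1.92, and for shared distal regions 1.92 and 1.86. A fold above 2 in both lists was found at 35 members, or 11.4%, compared with 30.4% of the other tagged-specific regions and 17.9% of the shared distal ones. The median −log10 q of members was 3.53 and 3.18, and 34 of them reached 5 in both lists.

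Between the tagged lists, 146 members had the higher fold in replicate 1 and 162 in replicate 2. The ratio of replicate 2 to replicate 1 ran from 0.718 to 1.46, with a median of 1.01. The median difference between the lists was 0.150 in fold, which is close to the distance from the median member to either quartile. The lists therefore give different orders for members of similar fold, and the order below ranks each member by fold in each list and uses the poorer rank.

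The fragments behind these folds can be recovered, because the fold and the p-value of a summit together fix its pile-up and its background. At the strongest summit, members had a median pile-up of 53 fragments in CND1-FLAG replicate 1 (exact 95% Poisson interval of a count of 53, 39.7 to 69.3) over a median background of 27.6. In replicate 2 it was 49 fragments (36.3 to 64.8) over 25.2. The other tagged-specific regions stood on more fragments, with median pile-ups of 89 and 80 over backgrounds of 44.4 and 40.4, and shared distal regions had 59 and 53 over 29.1 and 26.9. These intervals cover counting error alone. All 308 members had a pile-up whose interval lay above its background in each list, and a peak is called on that same excess.

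The peak caller does not let the background fall below a genome-wide level, and many distal regions sat at that floor. The lowest background was 27.6 fragments in replicate 1 and 25.2 in replicate 2. It applied to 173 members, or 56.2%, in replicate 1 and to 167, or 54.2%, in replicate 2. Among the other tagged-specific regions it applied to 2.84% and 2.73%, and among shared distal regions to 38.5% and 37.1%. At these summits the fold sets the pile-up against that floor. The 145 members at the floor in both lists had median folds of 1.78 and 1.80, near those of all members.

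**Figure D2:**
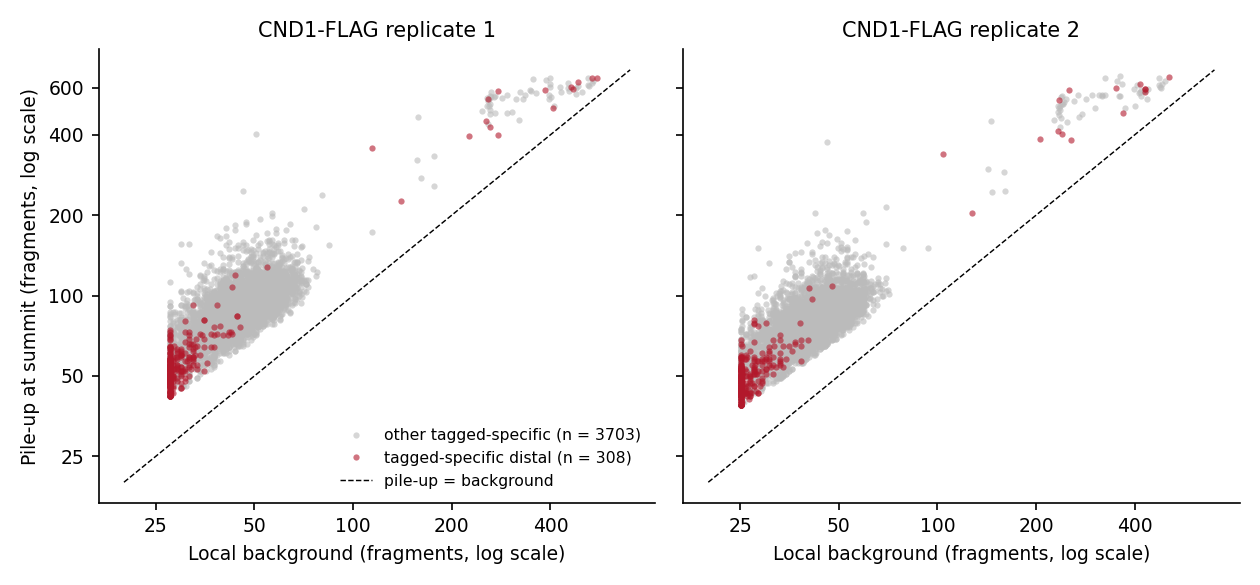
Pile-up at the strongest summit (vertical, fragments, log scale) against local background (horizontal, fragments, log scale) in CND1-FLAG replicate 1 (left) and replicate 2 (right), for tagged-specific distal regions (red) and other tagged-specific regions (grey), with a dashed line where both are equal. Red points gather on a vertical edge at the lowest background of 27.6 and 25.2 fragments, and a separate group lies above 100 fragments of background.

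The members lay around the centromeres. Windows of 6 Mb were used, at 12 to 18 Mb of chromosome 1, 1 to 7 Mb of chromosome 2, 11 to 17 Mb of chromosome 3, 1 to 7 Mb of chromosome 4 and 9 to 15 Mb of chromosome 5. They held 289 of the 308 members, or 93.8%, compared with 89.3% of shared distal regions and 11.9% of the other tagged-specific regions. The sequence in which a distal peak can lie is itself pericentromeric for the most part. Sequence over 3 kb from every gene of the reference table that is no pseudogene and no miscellaneous RNA amounted to 15.4 Mb, 89.3% of which lay in the same windows, and 96.4% of the members had their midpoint in it.

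By chromosome, 47 members lay on chromosome 1, 55 on chromosome 2, 87 on chromosome 3, 43 on chromosome 4 and 76 on chromosome 5. Chromosome 3 thus held 28.2% of the members, compared with 24.5% of the shared distal and 20.6% of the other tagged-specific regions. Chromosome 1 held 15.3% of the members, compared with 22.5% and 25.7%. How much of the sequence far from genes lies on each chromosome was not compared, so no preference for a chromosome is read from these shares. Median folds were much alike across chromosomes, from 1.75 to 1.85 in replicate 1 and similarly from 1.76 to 1.85 in replicate 2. The 19 members outside the windows had median folds of 1.88 and 1.85, and those inside 1.79 and 1.80.

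Although called intergenic, most members overlapped a locus of the reference gene table, RefSeq's annotation of TAIR10.1. Of the 308, 233 or 75.6% touched a locus, 229 of them a pseudogene and 6 a miscellaneous RNA, and none a protein-coding gene. The absence of protein-coding genes follows largely from the choice by that label, and shared distal regions touched none either. Pseudogenes were not left out by it. The pseudogenes of this table include many gene models made of transposon remains, and the table gives no field that tells these from other pseudogenes. The miscellaneous RNAs are transcribed loci without a coding sequence. The remaining 75 members touched no locus of the table.

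The midpoint of 64.6% of the members lay in a pseudogene, compared with 68.7% of shared distal regions and 4.10% of the other tagged-specific regions. Of the bases over 3 kb from other genes, 45.9% lay in pseudogenes. Counted by locus, the members touched 217 pseudogenes, 4.48% of the 4843 on the nuclear chromosomes. These had a median length of 3458 bp, against 1686 bp over all of them. A longer locus is more easily touched by 1 bp, and the lengths under shared distal regions were not compared. Of the 229 members on pseudogenes, 131 lay wholly inside one, 94 spanned an edge and 4 held a whole one. Of the 217 pseudogenes, 27 also carried a shared distal region, which is 12.4% of those of the members and 9.93% of the 272 that carry shared distal regions.

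**Figure D3:**
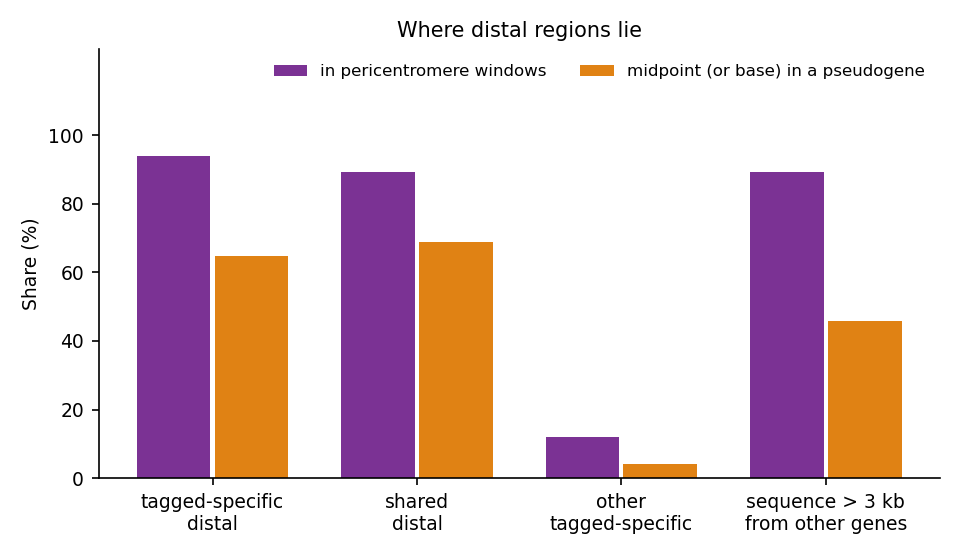
Share of regions in the pericentromere windows (purple) and share with the midpoint in a pseudogene (orange), in percent, for tagged-specific distal, shared distal and other tagged-specific regions, and the same shares of bases for sequence over 3 kb from other genes. Tagged-specific distal regions reach 93.8% and 64.6%, and sequence far from genes 89.3% and 45.9%.

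Members on pseudogenes and members on no locus differed in fold, −log10 q, width and background. The 229 on pseudogenes had median folds of 1.78 and 1.80, median −log10 q of 3.14 and 3.04 and a median width of 689 bp. The 75 on no locus had median folds of 1.89 and 1.88, median −log10 q of 4.90 and 4.54 and a median width of 485 bp. Their median backgrounds in replicates 1 and 2 were 27.6 and 25.2 fragments on pseudogenes, and 29.9 and 26.1 on no locus. Of the 15 members with a background over 100 fragments, 11 touched no locus. These differences were not tested, since regions are not replicates. Among the 23 best-ranked members, where 4 tie for the last place, 13 touched no locus, 9 a pseudogene and 1 a miscellaneous RNA, and 20 were pericentromeric.

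The best-ranked member lay on the pseudogene AT4G06477 (chromosome 4, 3060839 to 3061238, TAIR10), with a fold of 3.10 in CND1-FLAG replicate 1 and 3.23 in replicate 2. Its pile-up was 356 and 339 fragments over a background of 114 and 104, far above that of most members. It is 1 of the 15 members on high background described below. The region on AT2G15410 (chromosome 2, 6717209 to 6719367) had 2.33 and 2.38. It lay 4314 bp from the start of NRPD3B (AT2G15400), annotated as a subunit of RNA polymerases IV and V, the plant-specific enzymes that transcribe silenced repeats. The region on AT1G35110 and SADHU2-1 (AT1G35112; chromosome 1, 12840439 to 12841177) had 2.32 and 2.26. SADHU2-1 is annotated as a non-coding retrotransposon and was the only pseudogene under a member that the table names by more than its locus number. Regions on AT3G29175 and AT3G43157, both of chromosome 3, had 2.22 and 2.51, and 2.17 and 2.29.

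Others among the best-ranked lay on no locus. The region at 12810481 to 12810911 on chromosome 2 had a fold of 2.78 in replicate 1 and 2.80 in replicate 2. It is 1 of 3 outside the pericentromere windows and lies 3360 bp upstream of AT2G30020, described as a protein phosphatase 2C. Some proteins of that family are negative regulators of stress signalling. The region at 5468328 to 5468760 on chromosome 2 had 2.55 and 2.86 and lay 31272 bp from AT2G13150, described by similarity as a bZIP-type transcription factor. The region at 13331437 to 13331888 on chromosome 5 had 2.52 and 2.64, with 71 and 68 fragments over the floor of the background. The region at 16204017 to 16204371 on chromosome 3 had 2.48 and 2.28, near AT3G44635, described as similar to the disease resistance protein RPP1. In these cases the named gene is merely the one the authors' annotation assigned.

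Further best-ranked members on pseudogenes were on AT5G33303, with 2.13 and 2.26, on AT3G43304, near ATMIN7 (AT3G43300), with 73 and 59 fragments at the summit, and on AT5G35145, with 2.17 and 2.06. Those on no locus included the region near the long non-coding RNA AT5G08995, with 2.49 and 2.31, and the one near AT2G04715, with 2.14 and 2.65. Regions near AT5G34871, AT3G29790, AT3G31350 and AT5G35110 had 2.27 to 2.41 in replicate 1 and 2.06 to 2.25 in replicate 2. The region near AT4G06744 stood on 59 and 54 fragments over the floor. AT5G08995 and AT5G38380, at 2.07 and 2.13, mark the other 2 regions outside the windows. The best-ranked members thus spread over all 5 chromosomes and shared no single kind of locus.

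Miscellaneous RNAs and transcribed pseudogenes carried a few members. The locus AT5G05305, a miscellaneous RNA on chromosome 5, carried 2, with folds of 2.69 and 2.59 at 13988184 to 13988555 and of 2.28 and 1.68 at 13987403 to 13987974. The others of this kind were AT2G00410, with 1.84 and 1.99, AT3G00670, with 1.75 and 1.87, AT3G00470, with 1.69 and 1.75, and AT3G00210, with 1.88 and 1.67. Transcribed pseudogenes carried 8 members. The first of these by rank was AT2G07717 (chromosome 2, 3418549 to 3418968), with 2.11 and 2.30, and AT2G14550 and AT5G29030 followed, with 1.85 and 1.82, and 1.78 and 1.84.

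The distance from a member to the start of its assigned gene had a median of 9360 bp and ran from 3022 to 182875 bp. It was over 10 kb for 147 members, or 47.7%, and over 50 kb for 15. Shared distal regions had a median of 8848 bp. The assigned genes were protein-coding for 226 members, long non-coding RNAs for 54 and microRNA genes for 12, and 188 members lay upstream of the gene and 120 beyond its start. In replicate 2, 304 of the members were annotated as distal intergenic as well, and 4 fell just inside 3 kb of a gene.

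**Figure D4:**
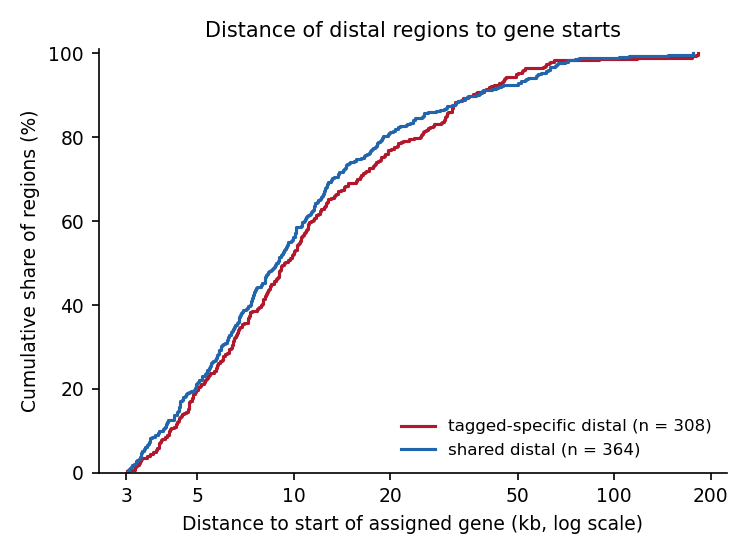
Cumulative share of regions (percent) by distance to the start of the assigned gene (kb, log scale) for the 308 tagged-specific distal regions (red) and the 364 shared distal regions (blue). Both curves start just above 3 kb, where the annotation's limit lies, and have medians of 9360 and 8848 bp.

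Members just inside the limit of 3 kb lay 3022 bp from PP2A6 (AT5G45080), with folds of 1.97 and 2.76, and 3047 bp from PHL1 (AT5G29000), with 1.99 in both lists. The next 3 lay 3194 bp from AT3G42990, with 1.71 and 2.103, 3207 bp from AT3G29180, with 2.22 and 2.51, and 3220 bp from AT3G43153, with 1.68 and 1.64. Tagged-specific regions just outside the rule lay 2997 bp from AT4G17420, with 1.94 and 1.64, 2976 bp from ARAC8 (AT3G48040), with 2.004 and 1.47, and 2951 bp from LACS2 (AT1G49430), with 2.40 and 2.07. The last 2 lay 2935 bp from SRK2C (AT1G78290) and 2933 bp from DREB1E (AT1G63030), with 1.90 and 1.95, and 2.63 and 2.25. The folds on either side of the limit overlapped in both lists.

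The members farthest from a gene start lay in the pericentromere of chromosome 3, where 7 members were assigned to the peroxidase gene PER32 (AT3G32980). Regions at 13705735 to 13706181, 13709678 to 13710080 and 13712957 to 13713306 lay 175654, 179580 and 182875 bp from it. Their folds were 2.105 and 2.33, 1.77 and 1.77, and 1.61 and 1.59. They stood on 584, 452 and 226 fragments in replicate 1 and on 590, 414 and 203 in replicate 2. The fourth by distance, on the pseudogene AT3G33073 at 118249 bp, stood on 46 and 50 fragments, and the fifth lay 89911 bp from AT3G06315. Among the first 4 of these, pile-ups ran from 46 to 584 fragments in replicate 1, while the folds of both lists stayed between 1.59 and 2.33.

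A small group of members stood apart by background. At 15 members the background at the strongest summit of replicate 1 exceeded 100 fragments, and at the other 293 it stayed at 54.7 or below. The 15 made up 4.87% of the members, compared with 1.92% of the shared distal and 1.54% of the other tagged-specific regions. All 15 were pericentromeric, 8 of them on chromosome 3, and 11 touched no locus. Their pile-ups were 226 to 651 fragments in the first tagged list and 203 to 659 in the second, and the upper ends lie close to the highest pile-ups of any tagged-specific nuclear region, 652 and 662. Their median folds were 1.53 and 1.59. All 5 members with a fold under 1.4 in both lists belonged to this group, and without the 15 the median fold of members was 1.81 and 1.82. The group also held the best-ranked member, on AT4G06477, with folds of 3.10 and 3.23. Its regions on AT2G07717 and at 13705735 to 13706181 on chromosome 3 had 2.11 and 2.30, and 2.105 and 2.33.

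Of the 15, 4 were assigned to an rRNA gene or lay between 3 and 4 Mb of chromosome 2. Regions at 14208189 to 14208653 and 14212488 to 14213012 on chromosome 3 were assigned to AT3G41979, an rRNA gene by the table, from which they lay 8462 and 12751 bp away, with folds of 1.44 and 1.51, and 1.75 and 1.87. The first touched no locus and the second the miscellaneous RNA AT3G00670. Regions at 3396877 to 3397501 and 3418549 to 3418968 on chromosome 2 lay on the transcribed pseudogenes AT2G07711 and AT2G07717, in the part of that chromosome that carries an insertion of mitochondrial DNA. The first had 1.31 and 1.37 on 602 and 591 fragments, and the second 2.11 and 2.30 on 543 and 542. Reads of the mitochondrial genome and of its nuclear copy cannot be told apart by sequence where the copies are identical. Between 3 and 4 Mb of chromosome 2 lay 7 members in all, and the other 5 had pile-ups of 42 to 76 fragments.

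Members also occurred in runs. With gaps under 20 kb, 79 members formed 23 runs of 3 or more, 86 formed 43 pairs and 143 stood alone. There were 19.9 members per Mb of the sequence over 3 kb from other genes. Runs were not counted for shared distal regions, and whether members cluster beyond what their density gives was not tested. The runs spanned 4.696 to 90.6 kb, and 8 of them lay on chromosome 3 and 6 on chromosome 5. The longest, with 6 members, lay at 11342361 to 11432960 on chromosome 5, and all 6 were on pseudogenes, with folds of 1.54 to 1.96 in the first tagged list and 1.52 to 2.14 in the second. The next, with 5 members, lay at 15033457 to 15058702 on chromosome 3, also on pseudogenes alone. In 14 of the 23 runs every member touched a pseudogene, and 74.4% of all members did so. No region of both tagged lists with a Col-0 peak lay inside 12 of the runs. Regions with other combinations of lists are not counted there, so these runs are not free of Col-0 peaks. The run at 5365937 to 5384507 on chromosome 2, 1 of the 12, enclosed 9 other regions. Its member at 5377135 to 5378141 lay 849 bp from a Col-0 peak.

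Single pseudogenes also carried several members. AT3G30811 (4097 bp) and AT5G35113 (4661 bp) each carried 3 members, and 18 other pseudogenes carried 2. The widest member covered 5591 bp of the pseudogene AT1G20390 and its surroundings (chromosome 1, 7065252 to 7070842), with 8 summits in replicate 1 and 5 in replicate 2 and folds of 2.05 and 1.89. The next in width lay on AT1G43883, with 2453 bp, on AT3G30811, with 2436 bp, and on AT1G36305, with 2396 bp, followed by the one on AT2G15410, with 2159 bp. The 5 widest members thus all touched a pseudogene, as 74.4% of all members did. A wider region more easily shares 1 bp with a locus. The median width of members was 602 bp, against 515 bp for the other tagged-specific regions and 725 bp for shared distal regions, which join peaks of more lists.

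Col-0 peaks were often near. The gap from a member to the closest Col-0 peak had a median of 3023 bp, compared with 4685 bp for the other tagged-specific regions. A Col-0 peak lay within 1 kb of 74 members, or 24.0%, compared with 15.4% of the other tagged-specific regions, and within 500 bp of 32. Since just called peaks were used, Col-0 signal below the calling threshold at the members was not measured.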

How the data were processed

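The 4 deposited lists hold annotated peak summits, 1 list for each ChIP library. Per the submitters' processing notes, the authors used fastp 0.19.11, BWA 0.7.12, MACS2 2.1.0 and TAIR10. Not given in the sources used here are the calling threshold and which input served each list. The authors' fold enrichment, a ratio, stands in the signal column per the file headers. The p-value and q-value columns hold −log10 values, per the file headers. The deposited score equals 10 times −log10 q, rounded down. Positions are those of TAIR10, counted from 1.

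Summits with identical peak limits counted as 1 peak. Of a region's summits in a list, the highest fold and the highest −log10 q were used. Members and lists were chosen with earlier results of these data known. Pile-ups were solved from fold and p-value, as (pile-up + 1) / (background + 1) and the Poisson tail, and came out whole for 100% of the summits used (tolerance 0.001 in −log10 p). Library totals were not used. Loci came from the RefSeq table of TAIR10.1, in which all 12573 assigned nuclear genes were found, 81.4% with the same start and 99.1% within 1 kb. A region touched a locus when they shared 1 bp.

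Named were the 20 best-ranked members with ties, the 5 farthest from a gene start, the 5 widest, up to 5 for each kind of locus, the 5 closest to the limit of 3 kb on either side, and the runs. From each group a part is given in full. The 15 members on high background were singled out after their values were seen. Libraries were compared by an exact permutation test, and regions were not tested, since they are not replicates. GC content and motifs were planned, but no genome sequence was used here. Scripts ran in Python 3.11.15 with scipy 1.17.1, pandas 2.3.3 and numpy 2.4.6 and were tested on simulated lists. Alternatives were stricter peaks, other overlap rules, other ways to take the feature of a region, and leaving out each library.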

Additional observations from a re-analysis of the deposited data

How the results depend on the processing

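With −log10 q of at least 5, tagged-specific distal regions numbered 59, or 2.20% of tagged-specific regions, with median folds of 2.20 and 2.18 in replicates 1 and 2, 84.7% of them pericentromeric and 59.3% on a locus of the gene table. With a fold of at least 2 they numbered 81, or 3.76%, with 2.22 and 2.18, 85.2% and 70.4%. Both settings leave fewer and stronger peaks by construction. They also drop weaker Col-0 peaks, so regions outside the 308 can enter. Of the 308 members, 34 had −log10 q of at least 5 in both tagged lists and 35 a fold above 2. These values therefore do not describe a stricter part of the members alone. With a reciprocal overlap of 50% their share was 6.66% and the median folds 1.81 and 1.80. Windows 1 Mb narrower on each side, chosen after seeing the data, held 83.1% of them. The difference between genotypes in the distal share was −1.28 percentage points with −log10 q of at least 5, and that in the pericentromeric share −0.803, and the cause was not tested.

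With 1 library left out, the number ran from 384 to 986, the distal share from 8.14% to 12.9%, the median fold from 1.78 to 1.82 (CND1-FLAG replicate 1) or 1.797 to 1.83 (CND1-FLAG replicate 2), the pericentromeric share from 93.5% to 95.03% and the share on a locus from 74.5% to 76.6%. For the comparisons between genotypes the ratio of distal peak numbers ran from 1.67 to 2.45, the difference in distal share from −0.511 to 1.36 and that in pericentromeric share from 3.58 to 4.86. Taking the replicate number as a block gave the same ratio of 2.06 with an exact sign-flip p = 0.5, the smallest that 2 pairs allow. The labels do not say that a number marks a shared day or batch. At the strongest summit, members rested on a median of 53 and 49 fragments in CND1-FLAG replicates 1 and 2. Library totals were not used, so what sequencing depth contributes was not tested.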
